A study of Mus musculus with 6 samples.

Results

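The 30 genes described here encode the enzymes of cholesterol and fatty acid synthesis and the proteins that control them. They were taken as a named list, and every probe set whose only gene symbol in the platform annotation was 1 of these names was used. Of the 30 genes, 29 were read by 67 such probe sets, out of 18193 genes and 45037 non-control probe sets in all. Acat2, the cytosolic thiolase, was not analysed here. The arrays came from cultured mouse cells labelled as breast cancer stem cells and separated by a sort on CD24 and CD29, a glycoprotein and the integrin beta-1 chain of the cell surface. The 2 groups were cells positive for both proteins (CD24+CD29+) and cells negative for both (CD24-CD29-), with 3 Affymetrix Mouse430_2 arrays each. Per the labels' protocols, all cells were grown in DMEM with fetal bovine serum, and the labels used here name no cell line, mouse strain, age or treatment other than the sort. The sample sets are described as biologically independent, without saying whether they were separate cultures or sorts, so p-values measure the spread between these arrays, which may be partly technical.

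Cholesterol is built from acetyl units through mevalonate, squalene and lanosterol, and fatty acids are built from the same acetyl units through malonyl-CoA. Many of these enzymes are transcribed under the control of the sterol regulatory element binding proteins (SREBPs), which Srebf1 and Srebf2 encode. An SREBP is held in the endoplasmic reticulum with its escort Scap by the Insig proteins while sterols are plentiful, and is carried to the Golgi and cut free when they are scarce. Serum supplies cells with sterols and fatty acids from outside. In the mammary gland, fatty acid synthesis is a known feature of the milk-producing alveolar cells.

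The stretch before the start of a gene is where SREBPs and their partner factors NF-Y and Sp1 act at many of these genes. It is shown for the member with the largest fall (Insig1), the member with the largest rise (Msmo1) and, among the 23 genes with a start in the table used, the 1 that held the sterol response element searched for (Hmgcs1). These 3 were chosen after their values and matches were seen. Each line gives the 250 bases before the start, 5′ to 3′ on the gene's own strand, from RefSeq on GRCm38.p6. Capitals mark the matches on either strand to TCACNCCAC (a sterol response element), CCAAT (the NF-Y box), CACGTG (an E-box) and GGGCGG (the Sp1 box), none of which overlapped another here.
Insig1 (chr5:28071162-28071411, plus strand): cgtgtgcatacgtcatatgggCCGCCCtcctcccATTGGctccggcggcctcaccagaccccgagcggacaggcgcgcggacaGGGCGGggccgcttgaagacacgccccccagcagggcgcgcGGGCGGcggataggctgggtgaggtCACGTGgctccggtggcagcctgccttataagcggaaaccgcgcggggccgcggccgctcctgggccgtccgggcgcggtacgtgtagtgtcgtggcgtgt
Msmo1 (chr8:64733579-64733828, minus strand): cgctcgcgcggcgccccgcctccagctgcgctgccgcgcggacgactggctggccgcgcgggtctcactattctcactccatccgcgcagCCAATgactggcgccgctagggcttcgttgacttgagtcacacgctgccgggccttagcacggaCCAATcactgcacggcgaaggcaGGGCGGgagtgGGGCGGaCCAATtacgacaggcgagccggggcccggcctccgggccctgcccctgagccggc
Hmgcs1 (chr13:119690101-119690350, plus strand): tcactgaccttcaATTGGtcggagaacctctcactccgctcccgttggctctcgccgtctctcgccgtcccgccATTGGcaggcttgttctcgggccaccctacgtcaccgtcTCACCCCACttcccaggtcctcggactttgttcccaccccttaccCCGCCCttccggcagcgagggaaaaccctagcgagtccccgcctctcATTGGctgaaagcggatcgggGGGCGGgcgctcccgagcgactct

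Insig1 held 1 NF-Y box, 1 E-box that began 101 bases before the start, and 3 Sp1 boxes. Msmo1 held 3 NF-Y boxes and 2 Sp1 boxes. Hmgcs1 held 3 NF-Y boxes, 2 Sp1 boxes and the sterol response element, which began 137 bases before the start. The table held 31 starts for 23 of the 29 genes. An NF-Y box was found at 20 of the 31 (64.5%), against 35.4% of the starts of protein-coding genes in the table and 33.8% of all starts. An Sp1 box was found at 22 (71.0%), against 42.6% and 32.7%, an E-box at 5 (16.1%), against 6.63% and 6.02%, and the sterol response element at 1 (3.23%), against 1.01% and 1.05%. These are matches of letters. The NF-Y box, the Sp1 box and the E-box each occurred at genes that were higher and at genes that were lower, and the 1 gene with the sterol response element was lower.

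The comparison asked whether RNA of the synthesis genes differed between the sorted groups, and the answer was mixed. CD24+CD29+ cells had 2.32-fold less Insig1 RNA and 1.85-fold less Srebf1 RNA than CD24-CD29- cells. They had more RNA of the sterol enzymes Msmo1 (1.80-fold) and Sqle (1.50-fold), of the fatty acid enzyme Acaca (1.52-fold) and of the SREBP escort Scap (1.46-fold). In all, 15 of the 29 genes were higher in CD24+CD29+ cells, 6 were lower and 8 did not pass (limma, Benjamini-Hochberg adjusted over all genes, threshold 0.05). This is 72.4% of the genes, where 70.8% of all genes passed and 77.9% of genes at least as bright as the dimmest of the 29, so the number of differing genes is near the background. Of the genes 51.7% were higher and 20.7% lower, against 34.4% and 36.5% of all genes. All 29 genes are at least moderately bright, and among the 9740 genes at least as bright as the dimmest of them 53.8% were higher and 24.1% lower, close to the shares of the synthesis genes. The median difference of the synthesis genes was 0.23 on the log2 scale, against -0.04 for all genes and 0.18 for those 9740. Insig1 was the only one that passed with a difference of at least 1 on the log2 scale, which 4.67% of all genes did.

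**Figure D1:**
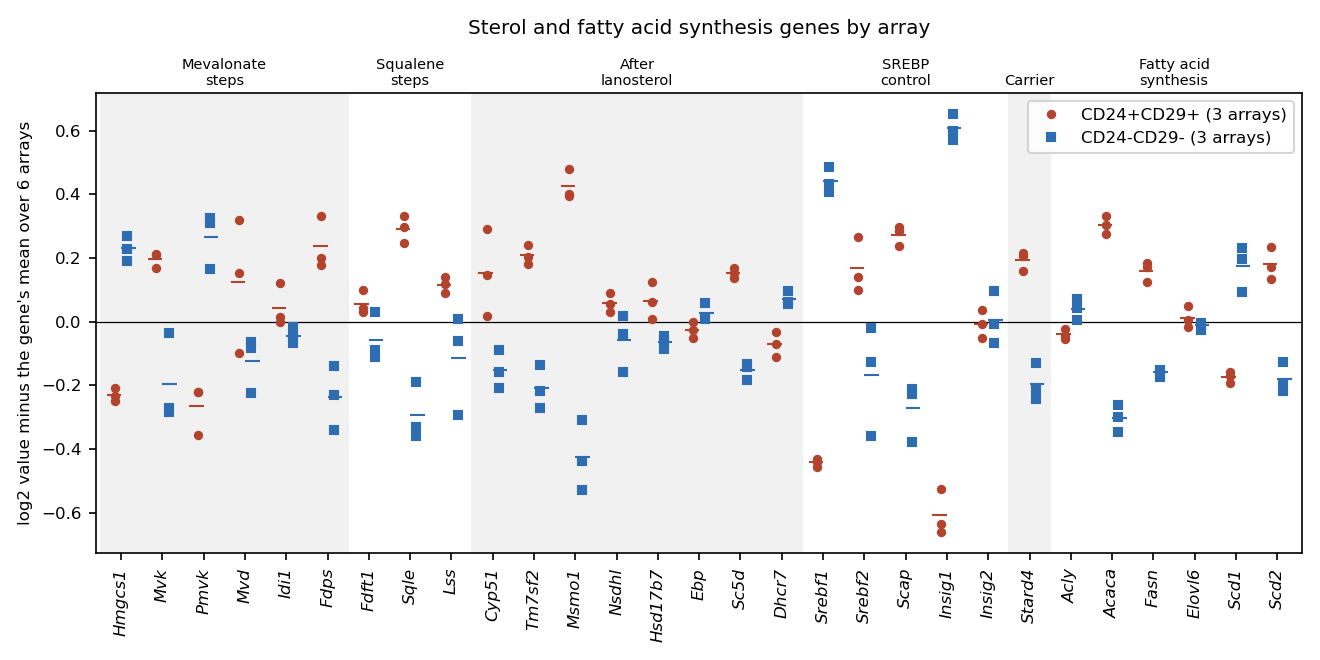
Deposited log2 value of each gene on each of 6 arrays, minus the gene's mean over the arrays, with circles for CD24+CD29+, squares for CD24-CD29- and short bars for group means. The groups lie apart for 26 of 29 genes, with the widest gaps for Insig1, Srebf1 and Msmo1. The lower genes other than Insig1 change direction when arrays are scaled to the poly-A controls.

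The groups did not overlap for 26 of the 29 genes (89.7%), against 73.6% of all genes and 82.6% of those as bright as the dimmest of them. The exceptions were Mvd, Insig2 and Elovl6. Directions hold for the values as deposited. Scaling to the spiked poly-A control RNAs, whose probe sets had a median difference of -1.17, changed the median over all genes from -0.04 to 1.05. Every difference then moved up by the same amount, which made Hmgcs1, Pmvk, Dhcr7, Srebf1 and Scd1 positive and left Insig1 lower, by -0.13 (limma adjusted p = 0.049). On that scaling 28 genes were higher and 1 was lower, against a background of 98.1% of all genes higher. Quantile normalization gave 11 higher and 10 lower members, where 30.6% and 34.1% of all genes were. Cyclic loess also gave 11 and 10, against 30.7% and 34.1% of all genes. Median centring gave 19 and 5, where 38.1% of all genes were higher and 30.4% lower. The mean of each gene's probe sets gave 14 and 10, against 31.8% and 37.4% of all genes. Over the 15 settings other than the poly-A scaling, 15 genes passed in 1 direction throughout. The 10 higher were Mvk, Sqle, Tm7sf2, Msmo1, Sc5d, Scap, Stard4, Acaca, Fasn and Scd2, and the 5 lower were Hmgcs1, Pmvk, Srebf1, Insig1 and Scd1. Of these, Sqle, Tm7sf2, Fasn, Pmvk, Srebf1 and Insig1 have 1 probe set, so other choices of probe set could not change their differences. The filters on dim genes, the intensity trend and the replicate block left the difference of every member unchanged and altered only p-values.

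**Figure D2:**
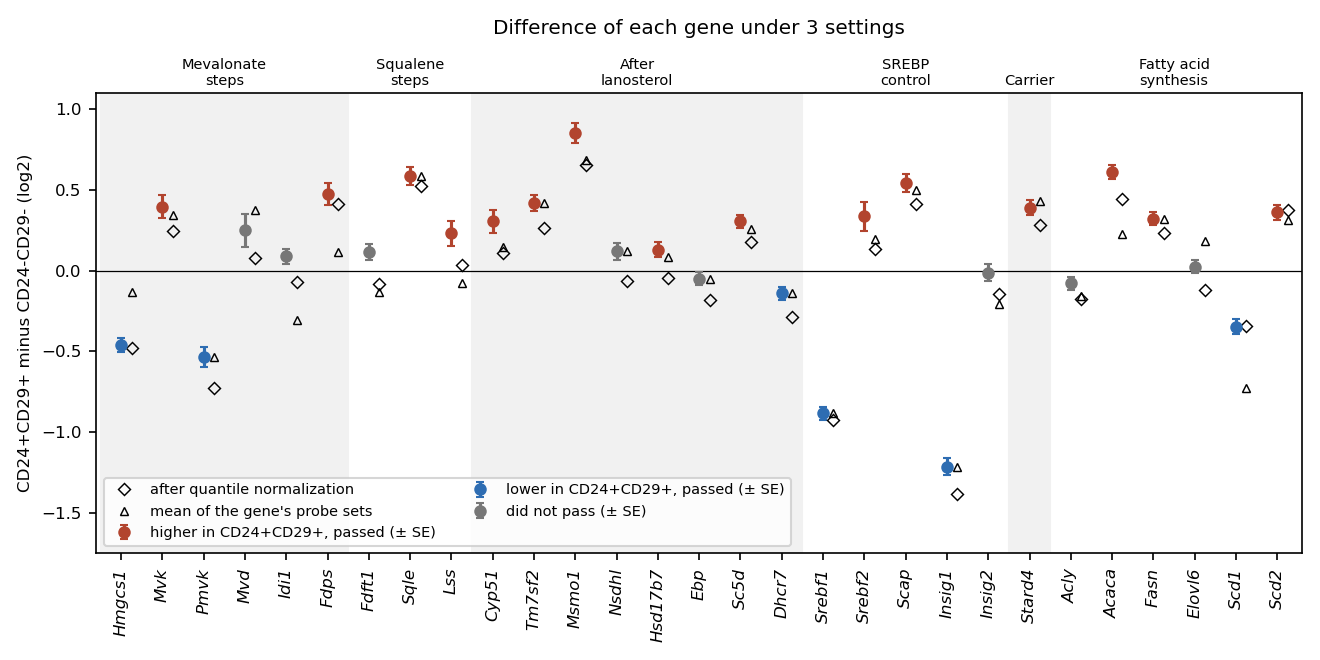
Difference between the groups for each gene (log2 scale, CD24+CD29+ less CD24-CD29-), with the standard error of the fit (3 arrays per group), beside the value after quantile normalization and the value from the mean of the gene's probe sets. Msmo1, Sqle, Scap and Acaca stay above 0 and Insig1, Srebf1 and Pmvk below 0 in all 3, while Idi1, Fdft1, Lss, Nsdhl, Hsd17b7 and Elovl6 lie on different sides of 0. Sqle, Insig1, Srebf1, Pmvk and Nsdhl have 1 probe set, so for them the mean of probe sets repeats the main value. Scaling to the poly-A controls, not drawn, moves all values up.

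Of the 5 control genes 2 were higher, 2 lower and 1 did not pass. Counts for this and later parts of the list stand against 53.8% higher and 24.1% lower among the 9740 genes at least as bright. Insig1, which holds Scap in the endoplasmic reticulum and is itself a target of SREBPs, read 7.23, 7.20 and 7.34 on the CD24+CD29+ arrays and 8.52, 8.46 and 8.44 on the CD24-CD29- arrays (log2). All 3 CD24+CD29+ arrays lay below all 3 others, a difference of -1.21 (SE 0.05, limma adjusted p = 1.3e-06; -0.13 under poly-A scaling). Srebf1, the gene of SREBP-1, read 11.20, 11.21 and 11.18 against 12.13, 12.07 and 12.05. Its groups were as clearly apart, at -0.88 (SE 0.04, limma adjusted p = 1.8e-06), or 0.20 under poly-A scaling. A 3′ probe set of this kind does not tell the transcripts of SREBP-1a and SREBP-1c apart.

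Scap read 10.61, 10.56 and 10.62 against 9.94, 10.11 and 10.10, higher in every CD24+CD29+ array (log2 0.54, SE 0.06, limma adjusted p = 7.7e-05). Srebf2, the gene of SREBP-2, the form tied most to cholesterol synthesis, read 8.90, 8.77 and 8.73 against 8.50, 8.61 and 8.27. It was higher by 0.34 (SE 0.09, limma adjusted p = 0.011), but by 0.14 after quantile normalization and 0.12 after cyclic loess, which did not pass. The other Srebf2 probe set overlapped between the groups and did not pass (0.06, limma adjusted p = 0.54 over all probe sets). The mean of both, 0.20, passed. Insig2, the second retention protein, overlapped between the groups on its brightest probe set, with a difference of -0.01 (SE 0.05, limma adjusted p = 0.84). The next brightest of its 3 probe sets read 9.84, 9.71 and 9.72 against 10.38, 10.49 and 10.27, a difference of -0.62 in a fit over all probe sets (limma adjusted p = 8.4e-05). Those 2 readings of Insig2 therefore disagree, and the third probe set did not pass. The mean of the 3, -0.21, passed, as did the brightest one after quantile normalization and cyclic loess (-0.15 in each).

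The enzymes of the mevalonate steps were split, with 2 higher, 2 lower and 2 not past the threshold among 6. Hmgcs1, which makes HMG-CoA and carries the sterol response element shown above, was lower in every CD24+CD29+ array, at 11.67, 11.71 and 11.68 against 12.11, 12.15 and 12.19 (log2 -0.46, SE 0.04, limma adjusted p = 4.2e-05; 0.62 under poly-A scaling). Of its other 4 probe sets the brighter pair was also lower, at -0.32 and -0.40, and the dimmest was higher. Pmvk, which adds the second phosphate to mevalonate, read 8.73, 8.60 and 8.74 against 9.28, 9.27 and 9.12 (log2 -0.53, SE 0.06, limma adjusted p = 0.00016; 0.55 under poly-A scaling). Both lower enzymes were thus without overlap between the groups.

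Mvk, the kinase that acts before Pmvk, went the other way, at 7.52, 7.48 and 7.52 against 7.04, 7.03 and 7.28 (log2 0.39, SE 0.07, limma adjusted p = 0.0016). Fdps, which makes farnesyl diphosphate, was higher by 0.47 (SE 0.07, limma adjusted p = 0.00045), but its dim probe set was lower, and the mean over both, 0.11, did not pass. Mvd, the decarboxylase, ranged from 7.55 to 7.97 against 7.42 to 7.58 and did not pass (log2 0.25, SE 0.10, limma adjusted p = 0.060), but its other probe set was higher by 0.50 (limma adjusted p = 0.0088). The gene passed as the mean of both (0.37), after median centring (0.30), with an intensity trend (0.25) and without CD24+CD29+ replicate 2 (0.36). For Idi1, the isomerase of isopentenyl diphosphate, the brighter probe set differed by 0.09 (limma adjusted p = 0.13), whereas the other read 9.06, 9.00 and 8.84 against 9.71, 9.61 and 9.68, a difference of -0.70 (limma adjusted p = 3.5e-05). No direction is given for Idi1, since these 2 probe sets disagree. The brighter one passed as higher after median centring (0.14), and the mean of both passed as lower (-0.30).

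Of the 3 genes from squalene to lanosterol, Sqle had the widest gap between the groups. Squalene epoxidase, its product, catalyses a step that limits the rate of the late pathway. It read 11.73, 11.70 and 11.65 in CD24+CD29+ arrays and 11.21, 11.04 and 11.07 in the others (log2 0.58, SE 0.06, limma adjusted p = 5.7e-05). Lss, the cyclase that makes lanosterol, was higher by 0.23 (SE 0.08, limma adjusted p = 0.028). After quantile normalization it was 0.032 and after cyclic loess 0.025, neither of which passed. The call was also lost when any of the 3 CD24+CD29+ arrays was left out (0.22 to 0.24), and the mean of its 3 probe sets was -0.08. Fdft1, squalene synthase, did not pass at 0.11 (limma adjusted p = 0.080), though it did without CD24-CD29- replicate 2 (0.16), after median centring (0.17) and with an intensity trend. Its brightest probe set, of the _x_at type that can cross-hybridise, was at -0.08 and did not pass. Its dim probe sets were lower, at -0.27 and -0.29, and the mean of its probe sets, -0.13, passed as lower.

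After lanosterol, 5 of 8 enzymes were higher, 1 was lower and 2 did not pass. Among the 9740 genes at least as bright as the dimmest of the 29, 53.8% were higher and 24.1% lower. Msmo1, which removes methyl groups from the sterol ring, read 8.74, 8.74 and 8.82 against 8.04, 7.90 and 7.81 (log2 0.85, SE 0.06, limma adjusted p = 1.5e-05). It was the largest rise among the synthesis genes, and its other probe set was higher as well. Tm7sf2, a sterol reductase, read 7.60, 7.56 and 7.53 against 7.08, 7.14 and 7.22 (log2 0.42, SE 0.05, limma adjusted p = 0.00016). Sc5d, a sterol desaturase, read 10.62, 10.60 and 10.63 against 10.32, 10.28 and 10.33 (log2 0.31, SE 0.04, limma adjusted p = 0.00028). The next brightest Sc5d probe set was higher by 0.78, and a dim one was lower.

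Cyp51, the lanosterol demethylase, was higher by 0.30 (SE 0.07, limma adjusted p = 0.0069), close to the value of Sc5d, but by 0.11 after quantile normalization and 0.092 after cyclic loess, which did not pass. Its next brightest probe set was higher by 0.44 (limma adjusted p = 0.00047) and its dimmest was lower by -0.31. On the probe sets taken for them, the other 4 late enzymes had smaller differences. Hsd17b7, a sterol ketoreductase, was higher by 0.13 (SE 0.05, limma adjusted p = 0.034). The call was lost when any array other than CD24+CD29+ replicate 1 was left out (0.10 to 0.14). It was also lost with an intensity trend and with the mean of its probe sets (0.085). In the fit over all probe sets this probe set did not pass (limma adjusted p = 0.056). The other Hsd17b7 probe sets passed in opposite directions, at 0.24, 0.34 and, for a dim one, -0.37. Dhcr7, which catalyses the final reduction to cholesterol, read 9.97, 10.01 and 10.05 against 10.18, 10.14 and 10.14. It was lower by only -0.14 (SE 0.04, limma adjusted p = 0.017), or -0.12 without CD24+CD29+ replicate 1 and -0.087 after median centring, neither of which passed, and it was 0.94 under poly-A scaling. Nsdhl, which acts with Msmo1 on the methyl groups, had a value of 0.12 (limma adjusted p = 0.087), but passed without CD24-CD29- replicate 1 (0.16), after median centring (0.17) and with an intensity trend. The isomerase Ebp had -0.05 (limma adjusted p = 0.28), but was lower after quantile normalization (-0.18) and cyclic loess (-0.19). Stard4, which carries cholesterol between membranes, read 10.99, 10.98 and 10.93 against 10.64, 10.56 and 10.53 (log2 0.39, SE 0.05, limma adjusted p = 0.00018), and all 3 of its probe sets were higher.

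In fatty acid synthesis 3 of 6 genes were higher, 1 was lower and 2 did not pass, and the desaturase genes were opposed. The shares of the 9740 genes at least as bright were again 53.8% higher and 24.1% lower. Acaca, which makes malonyl-CoA and so commits acetyl units to fatty acids, read 10.20, 10.14 and 10.17 against 9.60, 9.56 and 9.52 (log2 0.61, SE 0.04, limma adjusted p = 1.2e-05). The other Acaca probe set, a dim one, was at -0.16 and did not pass, and the mean over the probe sets, 0.22, passed. Fasn, which builds palmitate, read 11.27, 11.21 and 11.26 against 10.93, 10.93 and 10.91 (log2 0.32, SE 0.04, limma adjusted p = 0.00023). On the probe sets taken for them, both genes were above all CD24-CD29- arrays, by less than the gap of Insig1 or Srebf1.

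Scd1 and Scd2 encode related enzymes that put a double bond into saturated fatty acids. Scd1 read 12.05, 12.03 and 12.07 against 12.32, 12.42 and 12.46, lower by -0.35 (SE 0.05, limma adjusted p = 0.00043; 0.74 under poly-A scaling). Its dimmer probe set read 9.06, 8.68 and 8.88 against 10.02, 10.00 and 9.93, at -1.11, or -0.03 under poly-A scaling. Scd2 read 12.60, 12.54 and 12.50 against 12.24, 12.17 and 12.15, higher by 0.36 (SE 0.05, limma adjusted p = 0.00030). The ordering of the groups was therefore opposite for these genes, with no overlap in either. Elovl6, which elongates palmitate, did not pass at 0.02 on its brightest probe set (limma adjusted p = 0.61). Its other probe sets were both higher, and the mean of its probe sets, 0.18, passed. The brightest one passed as lower after quantile normalization and cyclic loess (-0.12 in each).

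Acly, which releases acetyl-CoA from citrate in the cytosol, could not be given a direction. Of its 6 probe sets the one taken for the gene had a difference of -0.08 (limma adjusted p = 0.11), the brightest, of the _x_at type, was lower at -0.48, and the fourth by level was higher at 0.71. The probe set taken for the gene passed as lower after quantile normalization (-0.18), after cyclic loess (-0.19) and with an intensity trend, and the mean of the 6 was lower at -0.16. Over all 67 probe sets of the synthesis genes 29 were higher, 21 lower and 17 did not pass, where of all probe sets 63.9% passed, 29.2% higher and 34.8% lower. Probe sets passed in opposite directions for 7 genes, which were Acly, Cyp51, Fdps, Hmgcs1, Hsd17b7, Lss and Sc5d. Of the 10 probe sets with a mean under 6, 7 were lower and 1 was higher, and of all 20076 such probe sets on the array 8541 were lower and 2055 higher. Of the 57 brighter ones 28 were higher and 14 lower, and of all 24961 such probe sets 11080 were higher and 7110 lower.

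**Figure D3:**
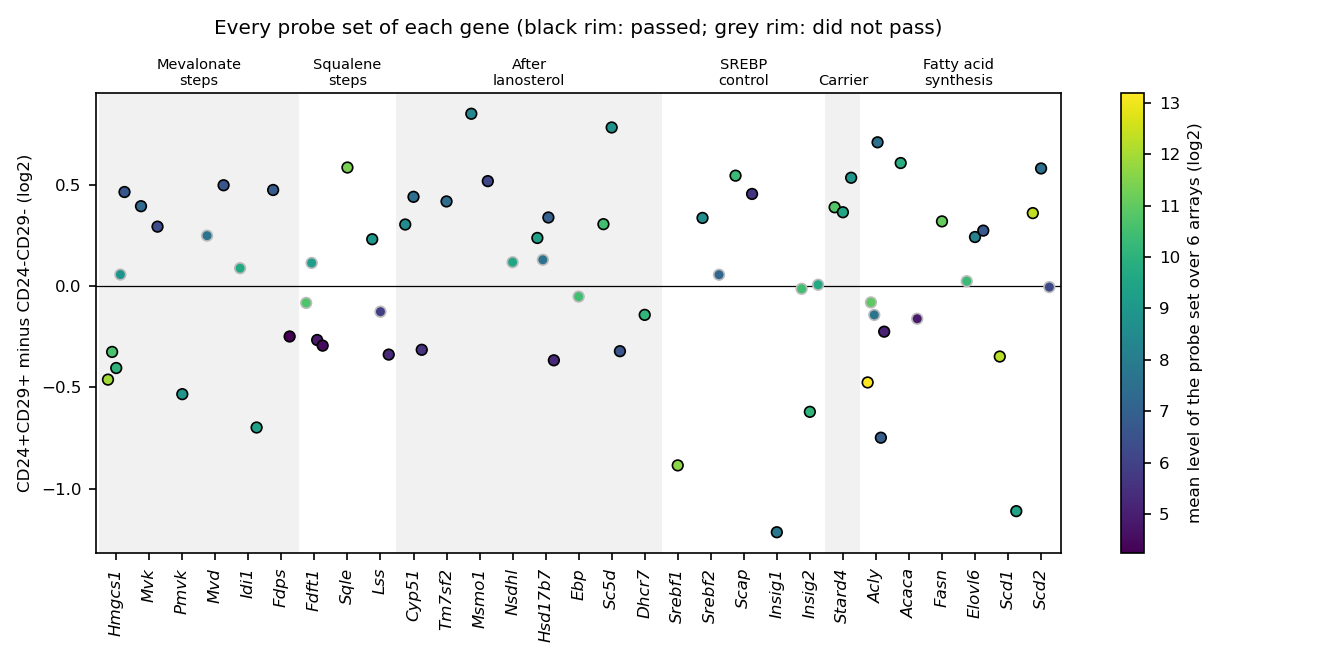
Log2 difference of CD24+CD29+ from CD24-CD29- arrays for each of 67 probe sets, coloured by mean level, with a black rim where the adjusted p passed. Probe sets of Stard4, Scap and Mvk lie on 1 side of 0, and both of Scd1 lie below it. Those of Acly, Cyp51, Fdps, Hmgcs1, Hsd17b7, Lss and Sc5d passed in opposite directions, and those of Idi1 and Insig2 also disagree. Scaling to the poly-A controls moves all probe sets up.

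**Figure D4:**
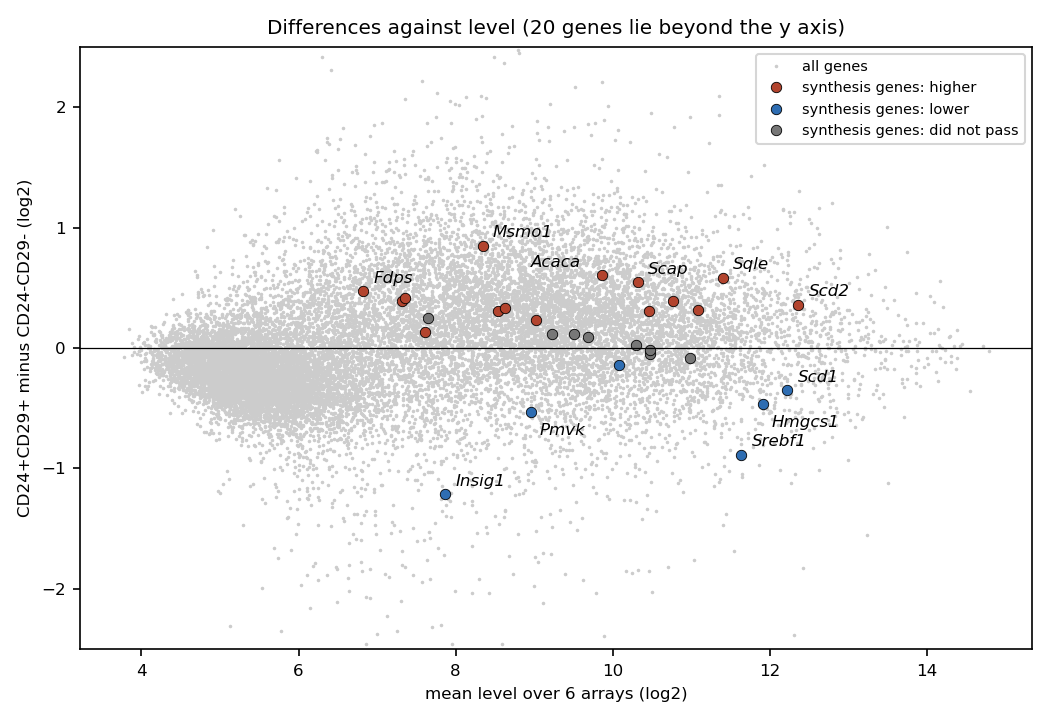
Difference between the groups (log2) against the mean level over 6 arrays (log2) for all genes in grey, with 20 beyond the axis, and the synthesis genes in colour. Higher genes make up most of the grey points above a level of 6.82, the mean of Fdps, the dimmest synthesis gene, and Insig1 and Srebf1 lie at -1.21 and -0.88 on this scale.

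Other genes of sterol and fatty acid supply were read from separate lists. Their counts stand against the 34.4% of all genes that were higher and the 36.5% that were lower, or 53.8% and 24.1% of the brighter genes. Of 12 measured further genes of sterol synthesis, SREBP cleavage and sterol uptake or handling, 6 were higher, 3 lower and 3 did not pass (median 0.11), or 9 of 12 passing where 70.8% of all genes did. Scarb1, a lipoprotein receptor, read 10.10, 10.05 and 10.09 against 8.79, 8.77 and 8.73 (log2 1.31, SE 0.04), but its brightest, of the _x_at type, was at -0.15 and passed. Npc1, which moves cholesterol out of lysosomes, read 8.69, 8.57 and 8.62 against 7.49, 7.39 and 7.36 (log2 1.22, SE 0.05, limma adjusted p = 1.4e-06). Dhdds, a subunit of the enzyme that draws farnesyl diphosphate into dolichol, was higher by 0.73. The SREBP-cleaving proteases were opposed, with Mbtps1 at 0.61 and Mbtps2 at -0.21, or 0.87 for Mbtps2 under poly-A scaling. These 2 were chosen after their values were seen.

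Of 22 further fatty acid genes 10 were higher, 5 lower and 7 did not pass (median 0.15), where 34.4% of all genes were higher and 36.5% lower. Elovl7, an elongase, was higher by 0.76, although 3 of its 6 probe sets were lower and the mean of the 6, 0.055, did not pass. Fads2, a desaturase, was higher by 0.72. Me1, which supplies NADPH for fatty acid synthesis, read 10.64, 10.61 and 10.64 against 11.34, 11.36 and 11.31 (log2 -0.71, SE 0.04, limma adjusted p = 3.9e-06; 0.38 under poly-A scaling). Of 19 genes of glycerolipid synthesis and lipid droplets 11 were higher and 5 lower (median 0.18), and the farthest from 0 was Lpin1, a phosphatidate phosphatase. It read 7.39, 7.33 and 7.45 against 9.07, 9.04 and 8.98 (log2 -1.64, SE 0.05, limma adjusted p = 3.2e-07), a gap wider than that of Insig1. Mgll, a monoglyceride lipase, was higher by 0.89 and the fatty acid receptor Cd36, at levels near 5 to 6, by 0.67.

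Among 8 genes of the liver X receptor, the nuclear receptor that senses oxysterols, and of sterol efflux, 3 were higher, 1 was lower and 4 did not pass (median 0.10). Abcg1, a sterol exporter, was lower by -0.63, or 0.45 under poly-A scaling, and Apoe was higher by 0.50. Rxra, the partner receptor, was higher by 0.24, but it did not pass after quantile normalization (0.041), after cyclic loess (0.034) or as the mean of its 3 probe sets (0.070). Of 20 genes of fatty acid oxidation 4 were higher, 7 lower and 9 did not pass (median 0.04), and the 7 of 20 that were lower compare with 36.5% of all genes. The lower ones included Etfdh, which passes electrons to the respiratory chain (-0.51), and Decr1 and Eci2 (-0.48 and -0.46), which handle unsaturated fatty acids. Under poly-A scaling these 3 were at 0.57, 0.61 and 0.62.

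Epithelial markers were bright in both groups, and so was the fibroblast marker Dcn (mean 12.74 in CD24+CD29+ and 11.59 in CD24-CD29- arrays). The 8 epithelial markers had mean levels over the list of 12.36 to 12.43 in CD24+CD29+ arrays and 12.28 to 12.30 in CD24-CD29- arrays. Within the list 3 were higher and 3 lower. Counts for this and the following marker lists stand against 34.4% of all genes higher and 36.5% lower. The basal markers Krt14 (0.99), Trp63 (0.80) and Krt5 (0.65) were higher in CD24+CD29+ cells, and the luminal keratins Krt19 (-0.95), Krt18 (-0.42) and Krt8 (-0.17) were lower, or 0.13, 0.66 and 0.91 under poly-A scaling. Adipocytes also make fat, and of their 5 measured markers Adipoq, Cidec and Pck1 lay under 5.31, the mean lower quartile of the arrays, and none of these 3 was higher. Fabp4 was higher in CD24+CD29+ cells (0.88), though 2 of its 4 probe sets were lower, and Cidec was lower (-0.19), or 0.89 under poly-A scaling, a call lost after quantile normalization (-0.085) and cyclic loess (-0.067). The list's mean level was 5.29 to 5.38 against 5.20 to 5.24. Fibroblast markers were higher in 7 of 7 (median 1.15), with mean levels of 9.16 to 9.22 against 7.99 to 8.07. Markers of alveolar luminal cells were lower in 6 of 6 (median -0.79), with mean levels of 9.73 to 9.79 against 10.67 to 10.72. Csn1s1 was at -2.39 and Elf5 at -0.97, or 0.11 for Elf5 under poly-A scaling. Csn2 (-0.60), Lalba (-0.38) and Wap (-0.21), with smaller differences than Elf5, also lie above 0 on that scaling. Leukocyte markers were higher in 0 and lower in 4 of 7, with mean levels of 5.67 to 5.73 against 6.00 to 6.06, and Ptprc and Itgam under the lower quartile. Of 5 endothelial markers 2 were higher and 1 was lower, with mean levels of 5.23 to 5.32 against 5.10 to 5.33. The part of the basal, luminal, fibroblast and alveolar markers in the differences of the synthesis genes was not tested, and in sorted bulk samples fewer cells of a type and less RNA per cell cannot be told apart.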

How the data were processed

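The deposited values are log2 expression per probe set, made with RMA and Partek, per the submitters' processing notes. No source used here gives their versions, their settings or a genome build. All 6 arrays were used, 3 per group, and their number limits the precision. Of 45101 probe sets, 64 were controls, 9160 had no gene symbol in the platform annotation, 932 had several and 34945 had 1. Each gene was read by the brightest of the latter, with the cross-hybridising _x_at type used only where a gene had no other. Differences were fitted by limma 3.58.1 (lmFit, eBayes; R 4.3.3) without a block, adjusted by Benjamini-Hochberg over 18193 genes, or over 45037 probe sets, with a threshold of 0.05, and the fit was tested on simulated data. No detection calls were used, and RMA compresses differences of dim genes. Arrays correlated at r = 0.998 to 0.999 within groups and 0.974 to 0.978 between them, across genes, which are not independent replicates. The synthesis genes and all lists were chosen with earlier results of these data known. Named were all members, the 3 called genes with the largest difference of each related list, and defining markers; the further probe sets described were chosen after their values were seen. Promoter sequences are RefSeq's, matched by symbol. The alternatives were other scalings, filters on dim genes, other choices of probe set, an intensity trend, a replicate block and leaving out each array. Listed genes without a single-symbol probe set were not analysed here.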

Additional observations from a re-analysis of the deposited data

How the results depend on the processing

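Of 29 genes, 15 passed in 1 direction under all 15 settings other than scaling to the poly-A controls. Several of these settings could not change a difference: the filters on dim genes, the intensity trend and the replicate block altered only p-values. Other choices of probe set could not change genes with 1 probe set, such as Insig1 and Srebf1. The count of higher members, 15, was 28 under that scaling and 0 with a minimum difference of 1 on the log2 scale. The count of lower members, 6, was 10 after quantile normalization, after cyclic loess and with the mean of probe sets, 1 under poly-A scaling and 1 with the minimum difference. By probe set, 29 higher and 21 lower became 65 and 0 under poly-A scaling. The median difference of the members, 0.23, was 0.032 after quantile normalization, 0.025 after cyclic loess, 0.29 after median centring, 1.31 under poly-A scaling and 0.12 with the mean of probe sets. Relative to all genes it was 0.27 as deposited and under poly-A scaling, 0.06 after quantile normalization and 0.05 after cyclic loess. Relative to the genes kept it was 0.19 without the dimmest 20% and 0.08 without the dimmest 40%. Leaving out 1 array gave 13 to 15 higher and 5 to 6 lower members, 28 to 29 and 19 to 21 probe sets, and a median of 0.15, without CD24+CD29+ replicate 3, to 0.27. The causes of these shifts were not tested, except that poly-A scaling adds the same amount to every difference.

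Signs turned as follows, and Csn2, Lalba and Wap also turned under poly-A scaling. Under poly-A scaling Hmgcs1 was 0.62, Pmvk 0.55, Ebp 1.03, Dhcr7 0.94, Srebf1 0.20, Insig2 1.07, Acly 1.00, Scd1 0.74, Me1 0.38, Abcg1 0.45, Etfdh 0.57, Decr1 0.61, Eci2 0.62, Mbtps2 0.87, Krt19 0.13, Krt18 0.66, Krt8 0.91, Cidec 0.89 and Elf5 0.11. Among the other probe sets described, those of Idi1 were at 0.38, Insig2 0.46, Acly 0.61, Fdft1 1.00 and Hmgcs1 0.76 and 0.68 on that scaling. The lower dim probe sets of Fdft1, Fdps, Cyp51, Sc5d and Hsd17b7 and the _x_at one of Scarb1 also turned. After quantile normalization and cyclic loess Idi1 was -0.074 and -0.093, Fdft1 -0.082 and -0.087, Nsdhl -0.063 and -0.072, Hsd17b7 -0.047 and -0.038, and Elovl6 -0.12 in each. Of these only Elovl6 passed. With the mean of probe sets Idi1 was -0.30 and Fdft1 -0.13, both of which passed, and Lss was -0.078, which did not. With _x_at included Fdft1 was -0.083 and Scarb1 -0.15. Median centring put Ebp at 0.0029 and Insig2 at 0.042, and leaving out 1 array moved Insig2 between -0.051 and 0.031, with 0.0086 without CD24+CD29+ replicate 2 and 0.031 without CD24-CD29- replicate 1.

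Deviations of same-numbered arrays from their group means correlated at 0.22, -0.05 and 0.04 across genes. Those of arrays with different numbers correlated at -0.24 to 0.21. Deviations from the means of 3 arrays are tied to each other, so these values cannot decide whether the numbers mark pairs. No pairing was assumed. With the replicate number as a block, 14 members were higher and 6 lower, with a median of 0.23, and 29 and 21 probe sets, as without it apart from Hsd17b7, whose call was lost.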
